A study of Mus musculus with 3 samples.

Results

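The genes described here encode the nuclear subunits of mitochondrial complex I (NADH:ubiquinone oxidoreductase) and the proteins that help to put it together. They were chosen by name alone, as protein-coding genes whose symbols begin with Nduf, followed by a, b, c, s, v, ab or af and a number. Of the 50686 genes of the count table, 46 met this rule, spread over 17 chromosomes. They comprise 7 catalytic core subunits, 29 accessory subunits, 8 assembly factors (the *Ndufaf* genes), and *Ndufa4* with its paralog *Ndufa4l2*. The last pair is kept apart because current models place the NDUFA4 protein in complex IV. A further 4 rows with such symbols were processed pseudogenes and were left out.

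RNA-seq of polyadenylated RNA was examined in 3 BCR::ABL1+ leukemic cell lines with the kinase inactive mutant of CDK6 (*Cdk6* KM/KM), numbered as in the sample labels. Bone marrow cells of C57BL/6 mice homozygous for the mutant were infected with a retrovirus for the p185 form of BCR::ABL1, and each line was generated separately. The oncogene, the vector and the mutant are thus common to all 3 lines, and no line with wildtype or deleted *Cdk6* was analysed here, so no value below compares genotypes. A change of 1 codon cannot be seen in counts per gene, and the counts therefore did not check the genotype label. The labels do not say whether a line is 1 clone.

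The libraries held 19633463 to 25773221 counts assigned to genes. Values are given as CPM, the counts of a gene relative to the library size, after TMM scaling, which adjusts library sizes so that most genes are level. *Cdk6* itself stood at 449.5, 334 and 239 CPM in lines 1, 2 and 3. All 10 B-lineage precursor markers examined were above 1 CPM in every line, with summed levels of 3922 to 4345 CPM (the labels call the cells Pre/Pro-B-cells). *Rag1*, a recombinase gene of B-cell precursors, was uneven between the lines at 22.4, 91.4 and 32.4 CPM. Summed markers reached 0.275 CPM at most for T cells, 3.93 CPM for myeloid cells (mainly *Lyz2*) and 1.01 CPM for erythroid cells and megakaryocytes, and all 5 stromal markers were at 0.

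Complex I is the entry point of the electron transport chain. It takes electrons from NADH through a flavin and a row of iron-sulfur clusters to ubiquinone, and uses the energy to pump protons across the inner mitochondrial membrane. Core subunits carry out this chemistry and are shared with bacteria, accessory subunits surround and stabilize them, and assembly factors act during construction and leave the finished enzyme. Some of the core is encoded in mitochondrial DNA, so the nuclear and the mitochondrial genome both contribute to it.

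The promoters of the nuclear genes were searched first, since NRF-1 and YY1 are known regulators of genes for respiratory chain proteins. RefSeq windows (GRCm38.p6) of 300 bases, with 250 before and 50 after a start site, were at hand for 40 of the 46 genes, in 42 windows. No window was matched for the other 6. Letters of 5 motifs were counted on both strands. The NRF-1 letters GCGCANGCG occurred in 11 windows (26.2%), against 6.25% of all 32851 RefSeq windows and 8.58% of the 21262 windows of protein-coding genes. The YY1 letters AAGATGGC occurred in 8 windows (19.0%), against 2.75% and 3.05%. The other 3 motifs were closer to the shares of protein-coding genes. SP1 (GGGCGG) was found in 52.4% against 46.2%, NFY (CCAAT) in 33.3% against 38.2%, and ETS (CGGAAG) in 33.3% against 21.1%. A match describes letters and not a bound site, and no match leaves binding unknown.

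The NRF-1 letters stood at 13 places in 10 genes, shown here with 10 bases on either side, 5′ to 3′ on the strand of the gene, to let the matches be read against each other. Capitals mark the match, which is GCGCANGCG or its reverse complement, and a run of 10 capitals holds both, overlapping. *Ndufb4* had 3 places and *Ndufa8* had 2.
*Ndufa11* (chr17:56717692-56717721, plus strand): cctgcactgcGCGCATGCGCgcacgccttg
*Ndufa5* (chr6:24527698-24527726, minus strand): tgtgtgagctGCGCAGGCGcaaatctacc
*Ndufa6* (chr15:82354249-82354277, minus strand): cgtggcaccgCGCGTGCGCacgctgaagg
*Ndufa8* (chr2:36049349-36049377, minus strand): tagagcagtgCGCTTGCGCgtcgctggag
*Ndufa8* (chr2:36049329-36049357, minus strand): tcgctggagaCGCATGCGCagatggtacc
*Ndufaf4* (chr4:24897960-24897989, plus strand): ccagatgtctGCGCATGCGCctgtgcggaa
*Ndufaf5* (chr2:140170652-140170681, plus strand): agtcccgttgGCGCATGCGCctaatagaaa
*Ndufb10* (chr17:24724407-24724435, minus strand): tcacctttctGCGCAGGCGtagaggtccc
*Ndufb4* (chr16:37654541-37654569, minus strand): gagaagcagtGCGCACGCGcagaatacgc
*Ndufb4* (chr16:37654429-37654457, minus strand): ccttgtgcgcGCGCAGGCGcacttcctga
*Ndufb4* (chr16:37654372-37654400, minus strand): cctcatatccGCGCAGGCGcagatgtgcg
*Ndufs5* (chr4:123718266-123718294, minus strand): gctgcttgctGCGCAGGCGcagacccgct
*Ndufs6* (chr13:73328479-73328507, minus strand): gactgctgtgCGCCTGCGCcggcacttgg
In *Ndufa11*, *Ndufaf4* and *Ndufaf5* the run was the palindrome GCGCATGCGC.

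All 8 YY1 matches lay on the strand of the gene and 10 to 38 bases after the RefSeq start site, which is why they are shown together. Capitals mark the match, with 8 bases before and 4 after it.
*Ndufa3* (chr7:3617387-3617406, plus strand): ccaagaacAAGATGGCcggg
*Ndufa9* (chr6:126849104-126849123, minus strand): tgtgggagAAGATGGCggcc
*Ndufaf8* (chr11:120098936-120098955, plus strand): cagggcccAAGATGGCggcg
*Ndufb8* (chr19:44555393-44555412, minus strand): agaaggtgAAGATGGCtgcc
*Ndufc1* (chr3:51408922-51408941, minus strand): tgcggaacAAGATGGCgccg
*Ndufs4* (chr13:114388048-114388067, minus strand): cctacaggAAGATGGCggcg
*Ndufs6* (chr13:73328438-73328457, minus strand): tcaccggcAAGATGGCggcg
*Ndufs7* (chr10:80249465-80249484, plus strand): ccgaggccAAGATGGCggcg
The letters hold an ATG, and in 7 of the 8 genes this ATG was an annotated start codon of the gene. The exception was *Ndufaf8*. Of the 649 windows of protein-coding genes with these letters, 263 (40.5%) had them on the gene strand after the start site. Among all windows of protein-coding genes, these 263 made up 1.24%. How many of those lay on an annotated start codon was not counted. *Ndufs6* alone had both the NRF-1 and the YY1 letters, and 23 of the 40 genes had neither.

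**Figure D1:**
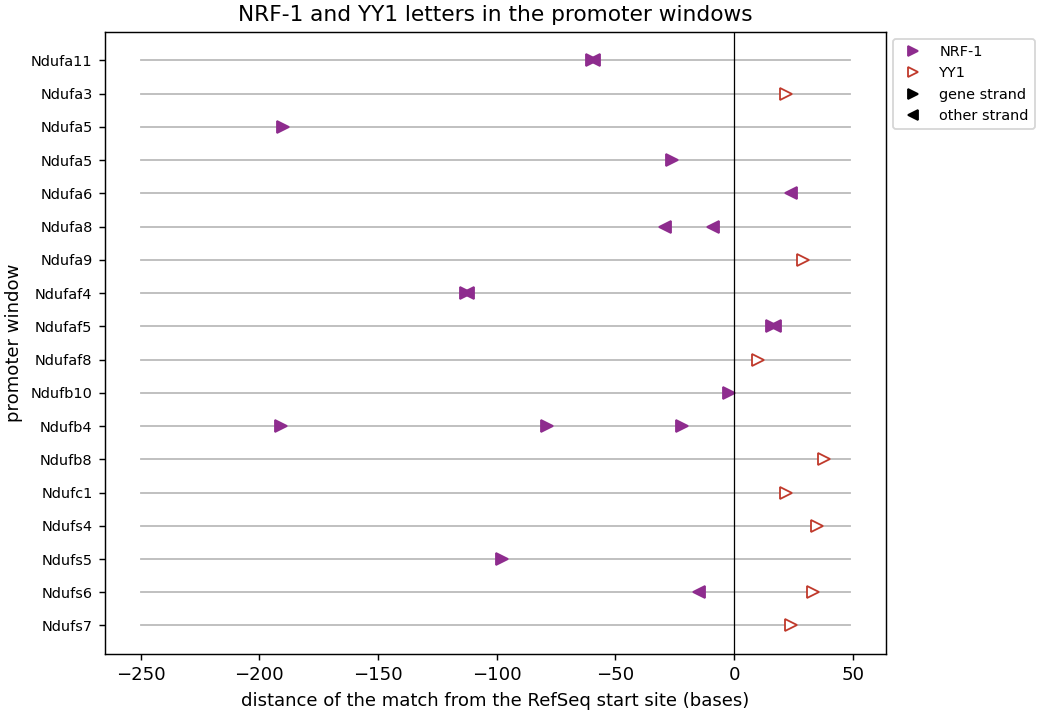
Place of the NRF-1 (filled) and YY1 (open) letters in the promoter windows that hold either, by distance in bases from the RefSeq start site at 0; arrowheads point right for the gene strand and left for the other strand, and each grey line is 1 window. *Ndufa5* has 2 windows that share 1 match, NRF-1 matches lie on both sides of the start site, and every YY1 match lies 10 to 38 bases after it.

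The bases before the start site of *Ndufaf4* are given whole, since this assembly factor had the smallest adjusted p of all members between the libraries and the stretch holds no annotated exon. Capitals mark the NRF-1 palindrome.
*Ndufaf4* (chr4:24897833-24898082, plus strand): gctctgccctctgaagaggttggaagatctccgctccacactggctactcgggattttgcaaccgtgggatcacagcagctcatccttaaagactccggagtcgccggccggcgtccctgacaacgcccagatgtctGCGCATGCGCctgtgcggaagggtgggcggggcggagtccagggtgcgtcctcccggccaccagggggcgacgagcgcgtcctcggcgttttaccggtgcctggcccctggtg
The stretch also held the ETS letters once and the SP1 letters at overlapping positions downstream of the palindrome. Genes with and without the NRF-1 letters had median spreads between lines of 0.0986 and 0.0752 (SD of log2(CPM + 1)), over 10 and 30 genes. For the YY1 letters the medians were 0.0804 and 0.0784, over 8 and 32 genes.

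Transcripts of 45 of the 46 genes were found at 1 CPM or more in every line. The exception was *Ndufa4l2*, known as a target of the hypoxia response, with 0 counts in every line, where 3 counts would have been 0.118 to 0.152 CPM. Together the 46 genes took 0.351%, 0.348% and 0.343% of all counts in lines 1, 2 and 3 (mean 0.347% ± 0.00386, SD, n = 3 lines). Accessory subunits accounted for 0.213% ± 0.00236, core subunits for 0.0954% ± 0.00273, assembly factors for 0.0238% ± 0.00196 and *Ndufa4* for 0.0152% ± 0.000861. The summed share was thus nearly level across the lines.

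Whether single genes differed between the libraries by more than counting error was asked with a chi-square test of their raw counts against the scaled library sizes, adjusted over the 13974 genes that reached a total of 10 counts. Each line is 1 library, so the test has no replicate of a line, its p-values cover counting error only, and it cannot part a difference between lines from one between preparations. It says nothing about a genotype. Below, called means past this test, and differed means that the libraries did. At an adjusted p below 0.05, 25 of the 45 members tested differed (55.6%), against 66.8% of all genes tested. By class these were 4 of 7 core subunits, 15 of 29 accessory subunits, 5 of 8 assembly factors and *Ndufa4*. The differences were small. The highest line exceeded the lowest by a median factor of 1.106, and 1 member, *Ndufaf8*, was called with a factor of 1.5 or more, against 28.4% of all genes tested. That share includes genes with few counts, and genes absent from a line passed the factor. It was not taken for genes at the level of the members alone.

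The spread between lines, as SD of log2(CPM + 1), had a median of 0.0762 over the members and of 0.169 over all genes tested. The biological coefficient of variation, as estimated by edgeR with the 3 lines as replicates, had medians of 0.161 and 0.279. These estimates draw each gene toward the values of other genes (0.366 in common over all genes). They are therefore not the observed spread of the members alone. Because spread and calls both depend on level, the 8339 genes within the range of mean CPM of the members are the nearer reference. Their median SD was 0.159, their median factor between highest and lowest line was 1.24, and 78.7% of them differed. Median SDs by class were 0.0539 for core subunits, 0.0762 for accessory subunits and 0.161 for assembly factors, so the assembly factors were about as spread as other genes of that range. Assembly factors had 276 to 2686 counts per line against 723 to 5860 for core subunits, and the part of counting error in their spread was not tested. By pairs of lines, 12 members differed between lines 1 and 2, 22 between lines 1 and 3 and 17 between lines 2 and 3, or 26.7%, 48.9% and 37.8% of them. For all genes these shares were 43.9%, 52.4% and 51.8%.

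No line was high or low for the members as a group. Deviations, taken as log2(CPM + 1) minus the 3-line mean of the same gene, had medians of -0.0099, 0.0026 and -0.0098 in lines 1, 2 and 3. Line 1 was the highest for 14 members, line 2 for 13 and line 3 for 18. Among all genes in the range of level of the members, line 3 was also the most frequent at the top, with 38.0%, against 29.8% for line 1 and 32.2% for line 2. The 8 assembly factors had medians of -0.00094, -0.068 and 0.065, and 4 of the 5 that were called were highest in line 3. In the plot of deviations the assembly factors are found from the top, with *Ndufaf8* and *Ndufaf4*, to near the bottom, with *Ndufaf1* (SD 0.038).

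**Figure D2:**
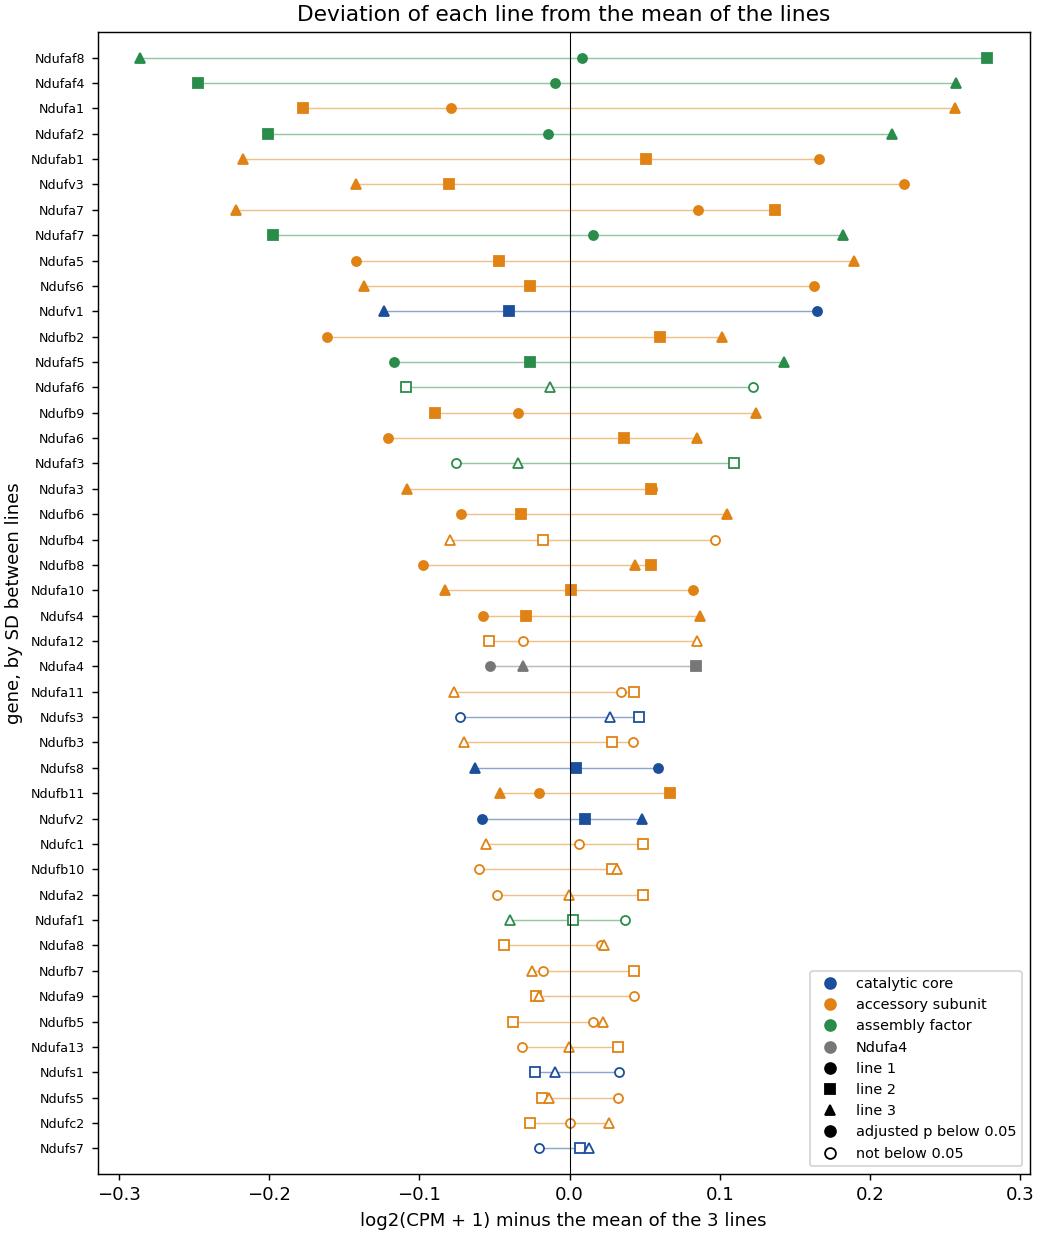
Level in every line as log2(CPM + 1) minus the 3-line mean of the gene, for 44 of the 45 members tested, sorted by their SD; symbols give the line, colors the class, and filled symbols a chi-square test with adjusted p below 0.05. *Ndufaf8* and *Ndufaf4* spread most, and *Ndufs7* at the bottom spread least with a factor of 1.024 between its highest and lowest line.

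Among the 7 nuclear core subunits, those of the electron input end were examined first. *Ndufv1* (chr19:4007384-4012806), whose protein binds NADH and the flavin, stood at 169, 147 and 139 CPM in lines 1, 2 and 3. Line 1 was the highest by a factor of 1.22, and the libraries differed beyond counting error (adjusted p = 8.47e-17). *Ndufv1* was the core subunit with the widest spread. *Ndufv2*, which holds an iron-sulfur cluster beside it, stood at 112, 117 and 121 CPM, and its order ran the other way (adjusted p = 0.0347). This call was lost with library size alone, with DESeq2 scaling, and without line 1 or line 3. *Ndufs1*, the largest core protein, stood at 237, 228 and 230 CPM and was not called (adjusted p = 0.170).

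Other core subunits lie toward the ubiquinone site. *Ndufs8*, a carrier of iron-sulfur clusters, stood at 106, 102 and 97.6 CPM (adjusted p = 0.0202). The lines were within a factor of 1.089, and the call was lost with no filter on low values and without line 1 or line 3. *Ndufs7*, which holds the last cluster before ubiquinone, was the most even of all members at 93.5, 95.3 and 95.8 CPM. *Ndufs3*, the lowest core subunit per kb of merged exons, stood at 33.6, 36.6 and 36.1 CPM and was not called (adjusted p = 0.263). Of its 50-base stretches, 39.7% also occur in other genes, mostly the pseudogene *Gm12251*, so that its level is uncertain.

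Assembly factors were more uneven. *Ndufaf4* (chr4:24898083-24905001), which acts on the part of the peripheral arm that binds ubiquinone, stood at 87.4, 74.0 and 105 CPM. Line 3 exceeded line 2 by a factor of 1.42, and no other member was called with a smaller adjusted p (5.81e-27). The 11 genes starting within 5 Mb had median deviations of 0.057, -0.084 and 0.137 in the same order, and the part of the neighborhood in the difference was not tested. *Ndufaf3*, the partner of NDUFAF4, did not share its order, with 12.7, 14.6 and 13.1 CPM (adjusted p = 0.278).

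*Ndufaf8* (chr11:120098928-120100705) stood at 14.3, 17.4 and 11.5 CPM, from 310, 344 and 292 counts. It had the widest spread of all members (SD 0.28 on the log2 scale, factor 1.52, adjusted p = 2.13e-06), with line 2 highest and line 3 lowest. *Ndufaf5*, a hydroxylase of NDUFS7 that NDUFAF8 is known to stabilize, had the opposite end at the top, with 16.4, 17.5 and 19.8 CPM (adjusted p = 0.0283). The call of *Ndufaf5* was lost with library size alone and without line 1 or line 3, so its order is weakly held.

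*Ndufaf7*, a methyltransferase that acts on a core subunit, stood at 30.2, 25.9 and 34.0 CPM (adjusted p = 1.45e-05). *Ndufaf2* stood at 27.9, 24.4 and 32.9 CPM (adjusted p = 1.59e-06). Line 3 was highest and line 2 lowest for both, as for *Ndufaf4*. *Ndufaf1*, which works on the membrane arm, and *Ndufaf6*, an early factor, were not called, with 26.6, 25.9 and 25.2 CPM and with 20.5, 17.3 and 18.5 CPM. For *Ndufaf2*, 65.6% of the length of merged exons lies opposite exons of a gene on the other strand. With no strand setting known, reads from that part cannot be told apart from that gene's. Of the stretches of its main transcript (the one with the longest coding sequence), 0% occur in another gene. The limit therefore applies to reads from exons outside that transcript, and their part in the level was not tested.

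*Ndufaf2* and *Ndufa12* are paralogs, and the NDUFA12 subunit takes the place of the factor late in assembly. *Ndufa12* stood at 41.6, 40.9 and 45.1 CPM (adjusted p = 0.0857), above *Ndufaf2* per kb of merged exons in every line. Line 3 was the highest for both. More than 50% of its 50-base stretches (53.8%) recur in the pseudogene *Gm15920*, which had 0 to 5 counts per line, so that the level of *Ndufa12* is uncertain. *Ndufa4* stood at 147, 161 and 149 CPM, highest in line 2 (adjusted p = 3.82e-04), while its paralog *Ndufa4l2* was at 0.

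Accessory subunits were compared with each other per kb of merged exons. These lengths are from Gencode M21, whereas the reads were counted on exons of Gencode M13. The highest were *Ndufa2*, a subunit of the peripheral arm, with 145 ± 4.93 CPM per kb, *Ndufc2* of the membrane arm with 120 ± 2.22, and *Ndufa1* with 114 ± 19.0 (SD, n = 3 lines). *Ndufa2* stood at 80.1, 85.7 and 82.8 CPM and *Ndufc2* at 90.7, 89.0 and 92.3 CPM, and neither was called. *Ndufa1*, a small X-linked membrane subunit, stood at 45.0, 41.9 and 57.0 CPM. Line 3 was above both other lines by a factor of 1.36 over the lowest (adjusted p = 2.53e-13). *Ndufb11*, the other X-linked member, had a factor of 1.083 and its highest value in line 2.

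The lowest accessory subunits were *Ndufab1* with 2.73 ± 0.382 CPM per kb, *Ndufb4* with 2.85 ± 0.211 and *Ndufb2* with 5.02 ± 0.495. *Ndufab1*, the mitochondrial acyl carrier protein, stood at 21.1, 19.4 and 15.9 CPM, lowest in line 3 (adjusted p = 3.08e-04). *Ndufb2* stood at 25.1, 29.4 and 30.3 CPM (adjusted p = 0.00379). *Ndufb4* stood at 5.90, 5.37 and 5.10 CPM and was not called. It had 128, 106 and 130 counts, the fewest of the members tested. Of its stretches, 37.0% recur elsewhere, mainly in *Ndufb4c*, so that the level of *Ndufb4* is uncertain. Its promoter holds more NRF-1 matches than that of any other member searched.

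Of the other accessory subunits, *Ndufs6* stood at 61.6, 53.9 and 49.9 CPM (adjusted p = 8.64e-07). Its neighbors had median deviations of 0.155, -0.047 and -0.116 in the same order, the widest of any member's neighborhood. No neighborhood passed the limit of 0.3. *Ndufa10* stood at 193, 182 and 172 CPM (adjusted p = 1.73e-06), with line 1 highest. *Ndufv3* stood at 69.5, 56.1 and 53.7 CPM and *Ndufa7* at 72.1, 74.7 and 58.0 CPM, with factors of 1.293 and 1.288 (adjusted p = 6.51e-12 and 2.97e-12). The other accessory subunits called were *Ndufa3*, *Ndufa5*, *Ndufa6*, *Ndufb6*, *Ndufb8*, *Ndufb9* and *Ndufs4* together with *Ndufb11*. Of these, *Ndufa5* had the widest gap, with 40.8, 43.7 and 51.6 CPM.

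In the order of levels per kb of merged exons, *Ndufaf4* was the highest assembly factor with 22.8 ± 4.04 CPM per kb. Of the 45 adjacent pairs in this order, 33 had ranges over the lines that overlapped. The ranges set aside that both genes were measured in the same lines, so an overlap does not show equal levels. *Ndufs6*, for example, overlapped *Ndufv1* in range but was higher in every line. The class medians were 55.2 CPM per kb for core, 44.0 for accessory and 12.6 for assembly genes. Core over assembly was 2.04, 2.15 and 2.09 on the log2 scale in lines 1, 2 and 3 (mean 2.09 ± 0.057, a factor of 4.26), and 6 of 7 core subunits were above every assembly factor. The exception was *Ndufs3*.

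The order of core and accessory genes depended on the length chosen. Core over accessory was 0.28, 0.30 and 0.15 on the log2 scale per kb of merged exons (mean 0.24 ± 0.078). Per kb of coding sequence it was -0.23, and per kb of the main transcript -0.082, a length added after the values were seen. The class medians per coding kb were 141 for core, 169 for accessory and 25.2 CPM for assembly genes, and 0 core subunits were above every assembly factor, since *Ndufaf4* reached 171. *Ndufab1*, *Ndufb2* and *Ndufb4* have long merged exons for their coding length. Of the lowest accessory subunits, only *Ndufb4* stayed among the 5 lowest members tested by all 3 lengths, with *Ndufaf3*. The shared stretches of *Ndufb4* leave its level uncertain by any length. Core and accessory levels therefore could not be ranked, while assembly factors had the lowest class median by every length.

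**Figure D3:**
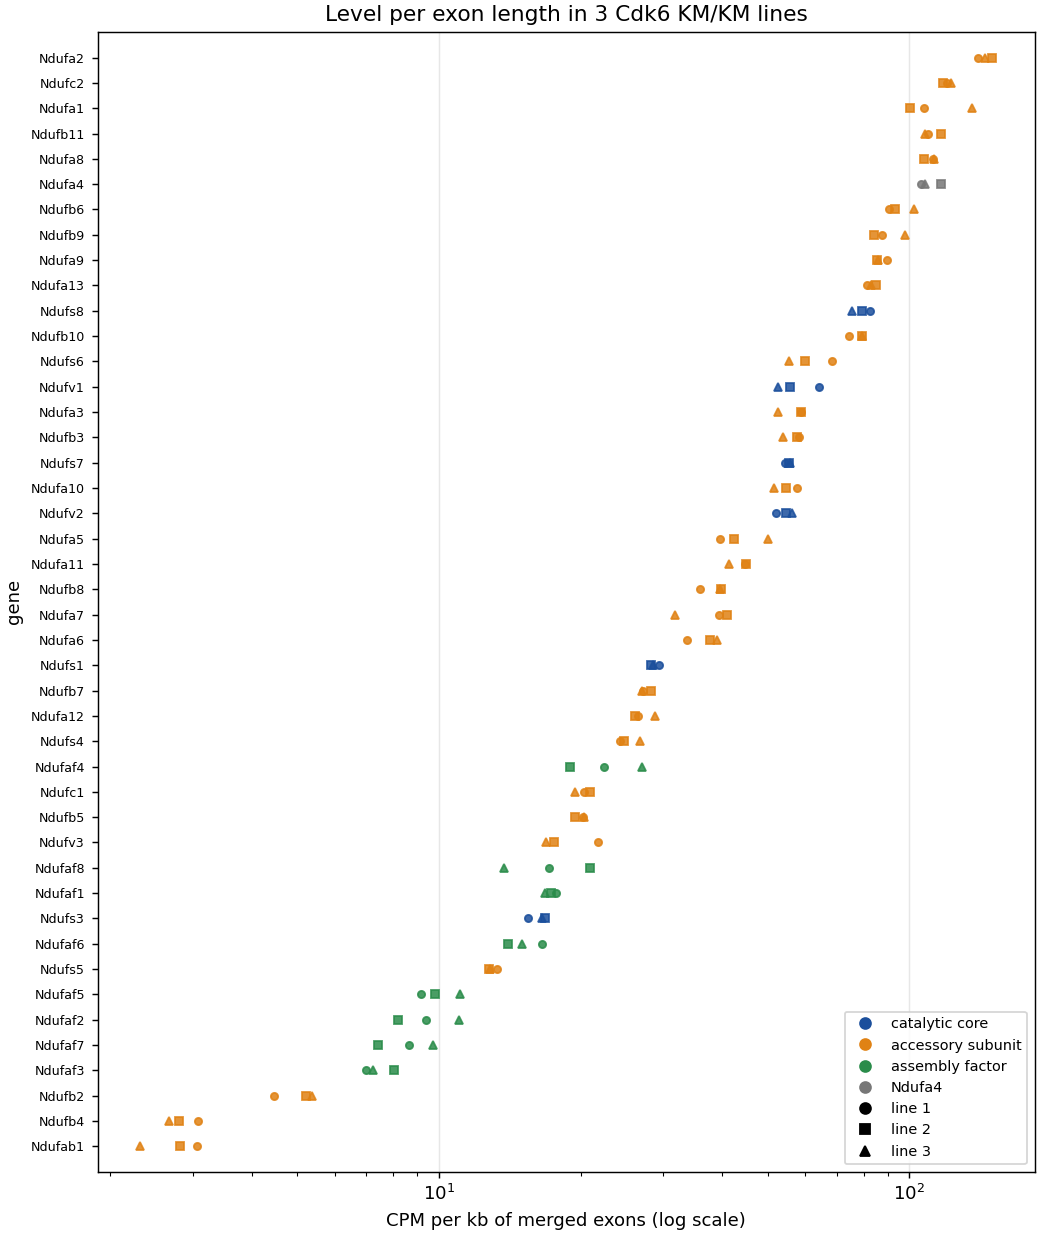
CPM per kb of merged exons (log scale) of 44 of the 45 members found, in each of the 3 lines (symbols) and by class (colors), sorted by mean. *Ndufa2* is at the top with 145 CPM per kb, assembly factors stand in the lower part of the order, and *Ndufb2*, *Ndufb4* and *Ndufab1* are at the bottom.

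**Figure D4:**
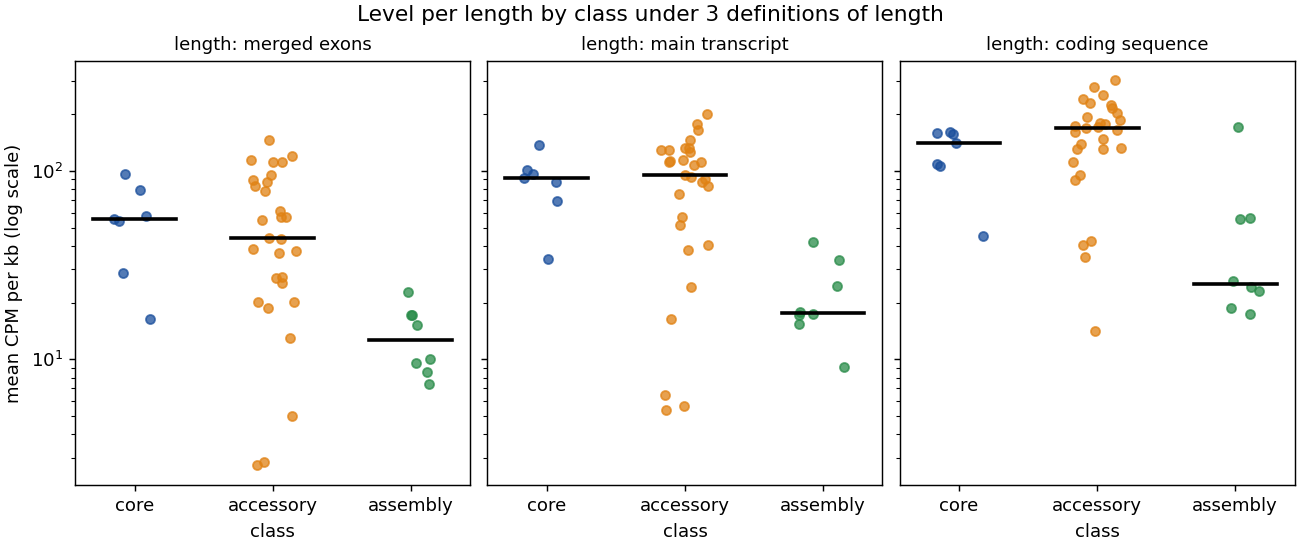
Mean CPM per kb over the 3 lines (log scale) by class, 1 point per gene, with the class median as a bar, for lengths of merged exons, of the main transcript and of the coding sequence. The assembly bar is lowest in each panel, whereas the core bar is above the accessory bar only for merged exons.

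The core subunits encoded in mitochondrial DNA were taken as a list beside the nuclear ones. Of 7 genes, 5 were tested, and their summed level was 5229 to 5401 CPM over the lines. *mt-Nd3* and *mt-Nd4l* were listed at 0 in every line, whereas *mt-Nd4* had 13005 to 15177 counts. Whether reads could be assigned to the genes listed at 0 was not tested, so the value is not read as absence of their RNA. Of the 5 tested, 3 differed, in a table where 66.8% of all genes did. *mt-Nd6*, the only member of this list encoded on the light strand, stood at 52.2, 27.8 and 61.3 CPM. It was lowest in line 2, by a margin beyond that of any nuclear member. With no strand setting known, its reads cannot be told apart from those of the opposite strand. The part of this and of the selection of polyadenylated RNA in the difference was not tested.

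Other factors known to assemble complex I had a spread near that of the *Ndufaf* genes. Of 11 listed, 10 were found and 9 differed, against 66.8% of all genes tested and 78.7% of those in the range of level of the members. They had a median SD of 0.148 and a summed level of 422 to 444 CPM. *Ecsit*, a partner of NDUFAF1, stood at 77.5, 85.7 and 92.1 CPM. *Nubpl*, which delivers iron-sulfur clusters, stood at 6.40, 5.57 and 2.28 CPM, from 139, 110 and 58 counts. It was lowest in line 3, where *Ndufaf4*, *Ndufaf7* and *Ndufaf2* were highest.

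Reads of some members may be shared. Of the 46 genes, 22 had at least 1 stretch of 50 bases that also occurs in another gene, 15 of them in a gene elsewhere in the genome, and 5 exceeded 30% (*Ndufa12*, *Ndufs3*, *Ndufb4*, *Ndufb6* and *Ndufs5*). For *Ndufb6*, the sharing gene is the overlapping *Smim27*, with 38 to 40 counts per line. Exons of 19 members overlapped another gene, and 27.1% of the stretches of *Ndufa13* lay in *Tssk6*, which had 3 to 20 counts per line. Without a known strand setting such reads cannot be told apart. Counting error itself was 9.71% of the value for the fewest counts (106) and 1.31% for the most (5860), and covers sampling of reads only. For members with few counts it was not small beside the median factor of 1.106 between highest and lowest line.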

How the data were processed

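RNA-seq of polyadenylated RNA from 3 *Cdk6* KM/KM BCR::ABL1+ lines was analysed. The authors trimmed the reads, aligned them to mm10 with STAR and used featureCounts to count reads on Gencode M13 exons. The authors deposited the raw counts per gene, with no normalization. The strand setting and the treatment of reads with several matches are not given in the sources used here. The sample labels name a SENSE mRNA-Seq kit with 50-base single-end reads, the study's methods a TruSeq kit. The table holds 6 other columns of samples, which were not used here, so no genotype was compared.

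Identifiers were matched to Gencode M21 (same assembly) for symbols, biotypes, coordinates and lengths (50462 of 50686 genes; 32 of 46 members had the same identifier version). Counts were scaled with edgeR 4.0.16 (TMM) in R 4.3.3. Spread was the SD over lines of log2(CPM + 1). Genes reaching 10 counts in total were tested by chi-square homogeneity with Benjamini-Hochberg adjustment at 0.05, on code tested on simulated data. This compares libraries. The lines are 1 group of 3 separately made lines, so no fit between groups was possible. Any pair of libraries differed at no fewer than 6102 genes, and none was taken as a duplicate. Levels between genes were compared as CPM per kb of merged exons. Stretches of 50 bases of the main transcript (the one with the longest coding sequence) were looked up in all Gencode transcripts, and promoter windows came from RefSeq (GRCm38.p6).

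The members, classes, lists and tests were chosen with earlier results of these data known. Values of 1 core subunit are not reported here, though it enters the counts and medians. Values were given for the other core subunits and *Ndufaf* genes, the 3 highest and 3 lowest accessory subunits per kb, the 5 widest spreads, 2 paralog pairs, members under 1 CPM, and members in neighborhoods (5 Mb) whose median deviation passed 0.3. Other genes named were chosen with their values known. As alternatives, TMM was replaced by size factors of DESeq2 1.42.0 or by plain library size. The filter was dropped, or set to 10 counts per line. Further alternatives were coding length, a pseudocount of 0.1, leaving out the member with over 50% shared stretches, leaving mitochondrially encoded genes out of the total, and leaving out each line. Python 3.11.15, numpy 2.4.6, pandas 2.3.3 and scipy 1.17.1 were used.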

Additional observations from a re-analysis of the deposited data

How the results depend on the processing

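No paired analysis was possible because the lines form 1 group. Of 59 recomputed main values, 52 kept within the limits set for them. The number of members that differed (25) was 22 without the filter on counts. With a line left out, where fewer samples enter each time, it was 17 without line 1, 22 without line 2 and 12 without line 3. *Ndufa10*, *Ndufaf4*, *Ndufaf8* and *Ndufv1* were called with all lines and in every fit with a line left out. Of 180 single-gene calls under other settings with all lines, 7 were lost and 4 gained. Those lost included *Ndufv2* with DESeq2 size factors, *Ndufv2*, *Ndufaf5* and *Ndufs4* with library size alone, and *Ndufs8* and *Ndufb11* without the filter. Of 135 calls with a line left out, 26 were lost and 2 gained. Without line 1, *Ndufa6*, *Ndufaf5*, *Ndufb2*, *Ndufb8*, *Ndufs6*, *Ndufs8*, *Ndufv2* and *Ndufv3* were lost. Without line 2, *Ndufa4*, *Ndufaf7* and *Ndufb11* were among those lost. Without line 3, they included *Ndufa1*, *Ndufa3*, *Ndufa5*, *Ndufa7*, *Ndufab1*, *Ndufaf2*, *Ndufaf5*, *Ndufb6*, *Ndufb9*, *Ndufb11*, *Ndufs4*, *Ndufs8* and *Ndufv2*. The median SD of the members ran from 0.0591 to 0.0906 with a line left out. Core over assembly (2.09, log2 scale) was 2.17 with a pseudocount of 0.1, 2.42 per coding kb and 2.26 per kb of the main transcript, an alternative chosen after seeing the data. Core over accessory (0.24) was 0.13 without the member with over 50% of its stretches shared, and it reversed to -0.23 per coding kb and -0.082 per kb of the main transcript. Merged exons add the exons of all transcripts to the length, and which length fits the RNA of these cells was not tested. Depth leaves *Ndufa4l2* undetected below 0.152 CPM, and 3 lines limit every SD.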
